A study of Mus musculus with 6 samples.

Results

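Vessel-wall cells make some of the proteins that keep blood fluid or let it clot. Here 8 genes of this kind were followed in mouse ear skin taken on postnatal day 21. They were found by their gene symbols in the deposited read-count table, where all 8 were present among 18422 genes and all 8 had enough reads to be tested. Vwf encodes von Willebrand factor, which tethers platelets and carries clotting factor VIII, the product of F8. F3 encodes tissue factor, the trigger of coagulation, and Tfpi encodes its inhibitor. Thbd and Procr encode thrombomodulin and the endothelial protein C receptor, which together let thrombin activate the anticoagulant protein C. F2r encodes PAR1, the main thrombin receptor of vessel cells, and Plat encodes tissue plasminogen activator, which starts the dissolution of fibrin.

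Endothelial cells store von Willebrand factor in Weibel-Palade bodies, and Vwf is among the most used endothelial marker genes, also made by megakaryocytes. Tissue factor is by contrast kept away from flowing blood in healthy skin, in the epidermis and around vessels. A gene read in whole skin can therefore come from several cell types, and in such bulk RNA fewer cells of a type and less RNA per cell cannot be told apart.

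The 3 ecko libraries came from tamoxifen-treated mice labelled Vegfr2ecko, with an endothelial deletion of Vegfr2, whose official symbol is Kdr. The 3 control libraries came from littermates that were also given tamoxifen. The series describes injections from postnatal day 1 at 60 μg per day or from day 10 at 200 μg per day, and the schedule of these mice, their Cre driver and their strain are not given in the sources used here. Each library was poly(A) RNA of whole ear skin, and no label names separate animals, so p-values measure the spread between these samples, which may be partly technical. Kdr, the deleted receptor gene, was at 3.36, 2.05 and 2.35 CPM in ecko libraries 1 to 3 and at 27.4, 29.1 and 33.7 CPM in control libraries 1 to 3, where CPM is the usual expression unit that divides a gene's count by the scaled library total. Totals were 17423532 to 18054696 counts in ecko libraries and 17255416 to 17594655 in control libraries. Y-linked genes had 36 reads in ecko 3 and 24 in control 3 but 3712 to 4390 in the other 4 libraries, so both groups hold 2 male libraries and 1 female library. Each group therefore came from more than 1 animal, but whether its 2 male libraries came from separate animals is not given.

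Vwf was the 1 member of the 8 that passed the test over all genes, and it fell. The gene has Entrez number 22371 and spans chromosome 6 from 125552948 to 125686679 (RefSeq on GRCm38.p6, as for the other genes). It had 713, 786 and 770 counts in ecko skin and 963, 1083 and 908 counts in control skin. As CPM these were 41.3, 43.5 and 43.1 in ecko libraries and 55.6, 61.6 and 51.5 in control libraries. The ecko values lay close together and below every control value. The mean was 42.6 ± 1.16 CPM in ecko skin and 56.2 ± 5.11 CPM in control skin (SD, n = 3 each), a log2 fold change of -0.40 (SE 0.08, 95% interval -0.57 to -0.23, edgeR quasi-likelihood adjusted p = 0.0343 over 14866 genes). That left 0.758 of the control mean. Of the 8 members 1 was called lower and 0 were called higher, also with DESeq2 and limma-voom, against 1.08% called lower and 0.686% called higher of all genes tested. Leaving out 1 library ended the call in 5 of 6 cases. The edgeR adjusted p was 0.150 without ecko 1, 0.124 without ecko 2, 0.10 without ecko 3, 0.0701 without control 1 and 0.0903 without control 2, and 0.0135 without control 3, while the log2 fold change stayed between -0.46 and -0.33. In a fit of the 4 male libraries, added once the values were known, the log2 fold change was -0.47 (edgeR adjusted p = 0.0503). The female pair had 43.1 CPM in ecko skin and 51.5 CPM in control skin.

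**Figure D1:**
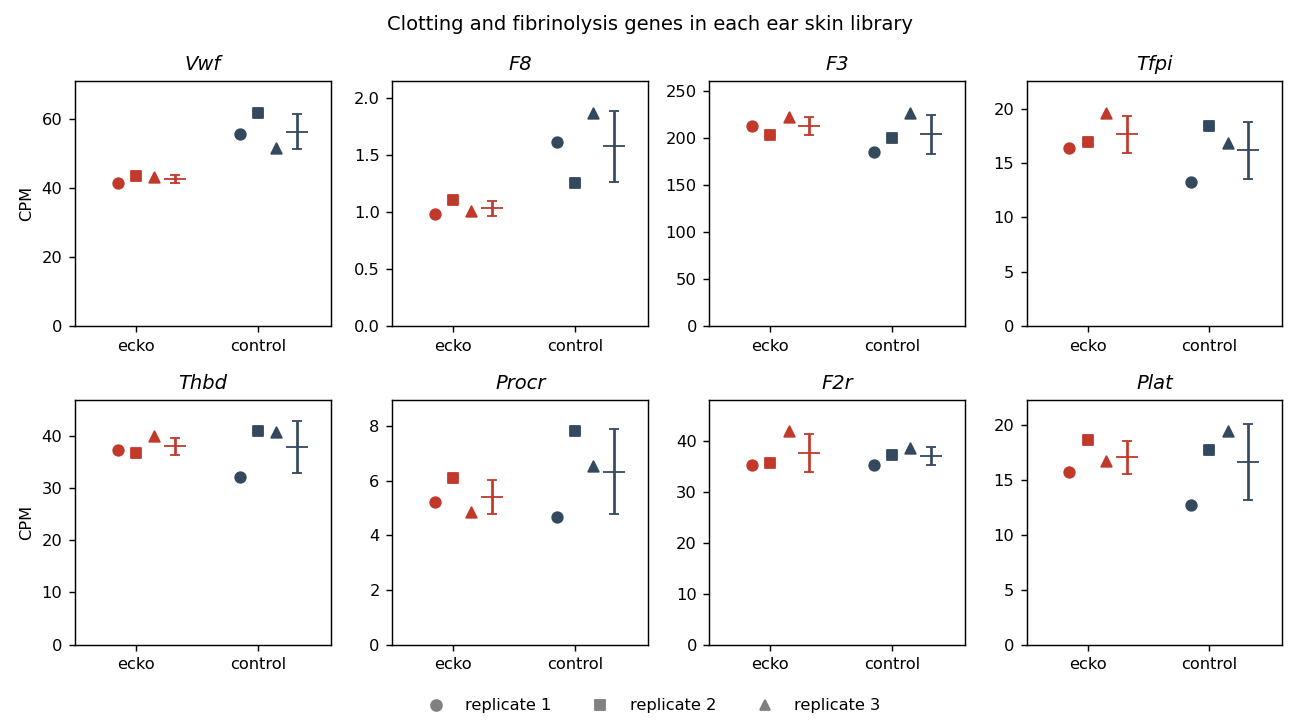
Level of each of the 8 genes in CPM (vertical axis, from 0) in the 3 ecko and 3 control libraries, with 1 symbol per library and the mean ± SD beside them. Vwf and F8 are the 2 genes whose ecko values all lie below the control values, at 41.3 to 43.5 against 51.5 to 61.6 CPM for Vwf.

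F8 had the lowest fold change of the 8 and by far the fewest reads. Factor VIII is made mainly by endothelial cells and circulates bound to von Willebrand factor. The gene (Entrez 14069, chromosome X from 75170344 to 75382738) had 17, 20 and 18 counts in ecko skin and 28, 22 and 33 counts in control skin. Every ecko value was below every control value, and the nearest were 20 in ecko 2 and 22 in control 2. Its level was 1.03 ± 0.0650 CPM in ecko skin and 1.58 ± 0.311 CPM in control skin (SD, n = 3 each). The log2 fold change was -0.61 (SE 0.25, 95% interval -1.17 to -0.05), and it did not pass over all genes (edgeR adjusted p = 0.285). Groups did not overlap, with ecko lower, for 2 of the 8 members, Vwf and F8, and for 10.8% of all genes tested. With ecko higher this was so for 0 of the 8 members and for 10.2% of all genes tested.

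Markers of the cells that make von Willebrand factor moved unequally. Of 13 general endothelial genes, 10 fell and none rose, with a median log2 fold change of -0.69, where the median over all genes tested was -0.00. Their summed level was 294 to 303 CPM in ecko libraries and 461 to 489 CPM in control libraries. In control skin the largest contributors were Pecam1, which encodes the adhesion molecule CD31, and Cdh5, which encodes VE-cadherin. Pecam1 was at 86.0 ± 0.758 CPM in ecko skin and 124 ± 6.93 CPM in control skin (SD, n = 3 each). Cdh5 was at 31.6 ± 1.48 CPM in ecko skin and 60.4 ± 2.87 CPM in control skin (SD, n = 3 each). Erg of the same list was level with Cdh5 in ecko skin, at 31.8 ± 1.89 CPM. In control skin Erg was at 35.8 ± 6.14 CPM, and it did not pass (log2 fold change -0.17, edgeR adjusted p = 0.543). Of 7 lymphatic genes 4 fell, with sums of 227 to 246 CPM in ecko and 308 to 383 CPM in control libraries. The 3 arterial genes that fell, of 6, and the 3 capillary genes that fell, of 7, stood in lists with medians of -0.87 and -0.26. None of 5 venous genes passed with edgeR, DESeq2 or limma-voom, and 1 had an unadjusted edgeR p under 0.05, with a median of -0.19 and sums of 98.3 to 115 CPM in ecko and 113 to 133 CPM in control libraries. Of 9 platelet and megakaryocyte genes 4 were tested, and 0 passed with any of the 3 tools or at an unadjusted p under 0.05. The 4 tested genes had a median log2 fold change of 0.04, with 3 above 0 and 1 below. The sums of the list were 37.9 to 41.7 CPM in ecko and 37.3 to 44.4 CPM in control libraries. Treml1, a platelet receptor gene, had too few reads to be tested. It was at 0 in the 3 ecko libraries and in control 3, at 3 counts in control 1 and at 4 in control 2. Markers of other tissue also fell, with 3 of 7 adipocyte genes (Cfd, Adipoq and Fabp4) and 2 of 8 skeletal muscle genes (Tcap and Ryr1) called lower. In each of these lists 1 gene was above 0 without passing. They were Lep among adipocyte genes (log2 fold change 0.88, edgeR adjusted p = 0.231, groups overlapping) and Myh2 among muscle genes (0.07, edgeR adjusted p = 0.882). The adipocyte sums were 252 to 322 CPM in ecko and 401 to 478 CPM in control libraries, and the muscle sums were 4600 to 5210 CPM in ecko and 5470 to 8114 CPM in control libraries. The part of these cell types in the Vwf difference was not tested.

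The genes whose profile over the 6 libraries was most like that of Vwf were Ly6c1, Smim1 and Rhob. Likeness was the root mean square difference in log2(CPM + 0.5) after centring each gene, which was 0.03, 0.04 and 0.04. Ly6c1, a surface protein gene, averaged 55.5 CPM in ecko skin and 73.9 CPM in control skin. Smim1, the Vel blood group gene, averaged 10.9 CPM in ecko skin and 14.1 CPM in control skin. Rhob, a small GTPase gene, averaged 119 CPM in ecko skin and 152 CPM in control skin. Smim1 did not pass (edgeR adjusted p = 0.101), whereas Ly6c1 (edgeR adjusted p = 0.0318) and Rhob (edgeR adjusted p = 0.0346) did. Ly6c1 has a near-identical neighbour, so its estimated counts are uncertain.

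The starter of coagulation and its inhibitor did not pass. F3 (Entrez 14066, chromosome 3 from 121723537 to 121735052) had 213, 203 and 222 CPM in ecko libraries and 185, 200 and 226 CPM in control libraries. The ecko values lay inside the control range. Its log2 fold change was 0.06 (SE 0.08, 95% interval -0.12 to 0.24, edgeR adjusted p = 0.786), and it was -0.0012 without control 1. Tfpi (Entrez 21788, chromosome 2 from 84432855 to 84476775) had 283, 307 and 351 counts in ecko skin and 230, 324 and 297 counts in control skin. Control 1 was the lowest of the 6 and ecko 3 the highest. The log2 fold change was 0.13 (SE 0.13, 95% interval -0.17 to 0.42, edgeR adjusted p = 0.716). The log2 ratio of F3 over Tfpi averaged 3.55 ± 0.10 in ecko skin and 3.62 ± 0.19 in control skin (SD, n = 3 each), a difference of -0.07 (exact two-sided permutation p = 0.7, where 3 against 3 cannot go below 0.1). Basal keratinocyte markers, read because epidermis holds tissue factor, had 0 of 7 genes past the edgeR test (1 at an unadjusted p under 0.05, and 1 called by DESeq2) and sums of 10360 to 10913 CPM in ecko and 9895 to 11267 CPM in control libraries. Of 7 differentiated keratinocyte genes, Krt1 rose (log2 fold change 0.76) and Casp14 rose (0.39), and the sums were 23649 to 26401 CPM in ecko and 21137 to 23762 CPM in control libraries. The part of either list in the F3 values was not tested.

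The pair that activates protein C also did not pass. Thbd (Entrez 21824, chromosome 2 from 148404471 to 148408188) had 37.3, 36.6 and 39.9 CPM in ecko libraries and 32.1, 40.8 and 40.8 CPM in control libraries. Control 1 lay below all other libraries and the other controls lay above all ecko values. The means were 37.9 ± 1.70 CPM in ecko skin and 37.9 ± 5.02 CPM in control skin (SD, n = 3 each), with a log2 fold change of 0.00 (SE 0.10, 95% interval -0.21 to 0.22, edgeR adjusted p = 0.996) that was -0.10 without control 1. Procr (Entrez 19124, chromosome 2 from 155751125 to 155755478) had 90, 110 and 87 counts in ecko skin and 81, 137 and 115 counts in control skin. Control 1 was the lowest library and the other 2 controls were the highest. Its log2 fold change was -0.23 (SE 0.19, 95% interval -0.65 to 0.19, edgeR adjusted p = 0.629), and it was -0.41 without control 1. The log2 ratio of Thbd over Procr averaged 2.71 ± 0.21 in ecko skin and 2.51 ± 0.17 in control skin (SD, n = 3 each; exact two-sided permutation p = 0.3).

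The thrombin receptor and the plasminogen activator gave fold changes near 0. F2r (Entrez 14062, chromosome 13 from 95601780 to 95618466) had 35.2, 35.7 and 41.8 CPM in ecko libraries and 35.2, 37.3 and 38.6 CPM in control libraries. The groups overlapped and ecko 3 was the highest library, with a log2 fold change of 0.02 (SE 0.08, 95% interval -0.16 to 0.20, edgeR adjusted p = 0.931) that was -0.03 in the male libraries alone. Plat (Entrez 18791, chromosome 8 from 22757722 to 22782848) had 15.8, 18.7 and 16.8 CPM in ecko libraries and 12.8, 17.8 and 19.4 CPM in control libraries. All 3 ecko values lay between control 1 and control 3. The log2 fold change was 0.04 (SE 0.15, 95% interval -0.30 to 0.37, edgeR adjusted p = 0.941), and it was -0.12 without control 1. Of 10 mural cell markers, read because pericytes and smooth muscle use thrombin receptors, Rgs5 and Abcc9 fell and all 10 had fold changes below 0, with 6 at an unadjusted edgeR p under 0.05, 4 called by DESeq2 (also Acta2 and Des) and sums of 813 to 854 CPM in ecko and 1003 to 1115 CPM in control libraries. Control 1 was the lowest control library for 6 of the 8 members.

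**Figure D2:**
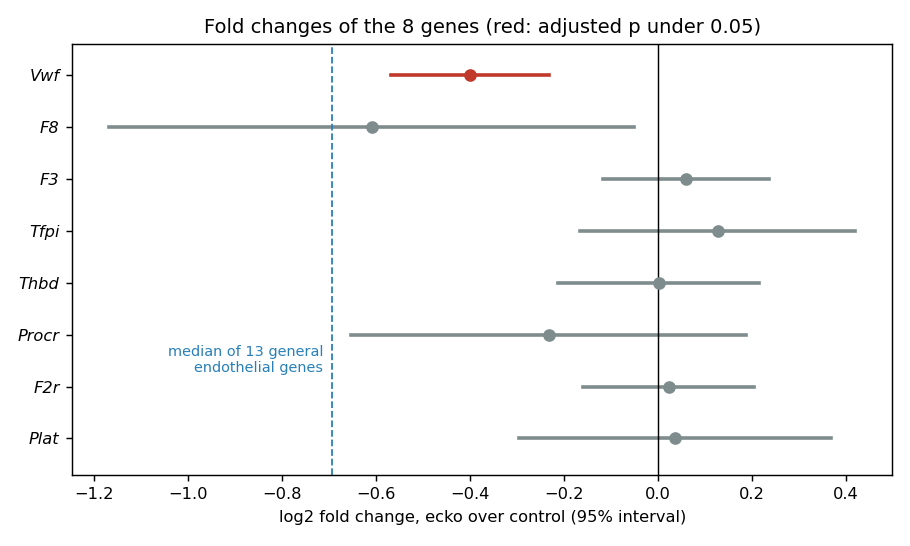
Log2 fold change of ecko over control (horizontal axis) of the 8 genes with its 95% interval. The dashed line is the median of 13 general endothelial genes at -0.69, and Vwf at -0.40 (red) is the 1 gene with an adjusted p under 0.05.

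Promoters were compared as a feature that did not choose the genes. RefSeq promoter entries in GRCm38.p6 matched 5 of the 8 members, Procr, F8, F3, Tfpi and F2r, and not Vwf, Thbd and Plat. In the 250 bases before the start of each entry, 4 short motifs were searched on both strands. The entry starts are not all the ends of the gene spans given above. The F8 window, at chrX:75380042-75380291, lies inside the stated F8 span. The Procr window runs past the stated Procr start, and the Tfpi windows lie partly or wholly inside the Tfpi span. The AP-1 motif TGANTCA, the site of the Fos and Jun factors, was held by 3 of the 5 and by 6.75% of 32851 promoters. The 3 promoters that hold it are shown 5′ to 3′, with the motif in capitals. Its first base lies 154 bases upstream of the entry start in Procr, 146 and 135 bases upstream in F3 and 204 bases upstream in F2r. They lie at chr2:155750967-155751216 on the plus strand, at chr3:121723287-121723536 on the plus strand and at chr13:95618467-95618716 on the minus strand.
Procr: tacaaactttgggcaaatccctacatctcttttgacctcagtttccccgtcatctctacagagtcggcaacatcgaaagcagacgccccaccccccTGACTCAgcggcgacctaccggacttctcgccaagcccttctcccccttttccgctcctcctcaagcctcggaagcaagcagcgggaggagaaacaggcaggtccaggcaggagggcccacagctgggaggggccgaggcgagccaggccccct
F3: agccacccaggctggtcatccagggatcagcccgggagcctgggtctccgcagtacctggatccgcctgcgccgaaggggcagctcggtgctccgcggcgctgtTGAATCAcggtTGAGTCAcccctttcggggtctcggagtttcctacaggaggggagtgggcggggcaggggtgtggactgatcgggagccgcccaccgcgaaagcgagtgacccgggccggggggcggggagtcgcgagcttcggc
F2r: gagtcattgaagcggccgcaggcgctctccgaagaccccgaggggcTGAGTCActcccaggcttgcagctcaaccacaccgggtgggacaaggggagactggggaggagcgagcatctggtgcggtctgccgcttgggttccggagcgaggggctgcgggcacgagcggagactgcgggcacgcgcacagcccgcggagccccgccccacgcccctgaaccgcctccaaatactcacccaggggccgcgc
GC content was 61.6%, 70.0% and 70.8% in these 3 windows. The other motifs were the ETS core GGAA, the GATA core GATA and the Sp1 box GGGCGG, held by 93.4%, 53.6% and 32.7% of all promoters. ETS cores numbered 4 in the window of F8, 5 and 4 in the windows of the 2 starts of Tfpi, 3 in Procr and 1 each in F3 and F2r. GATA cores were found in the windows of F8 and Tfpi, 2 in each, and in none of the other 3. The Sp1 box was held by 3 of the 5 genes, F3, Tfpi (in both entries) and F2r, the same number of genes as for AP-1. A match describes letters only, and none of these 3 printed genes passed the test.

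Set against the endothelial genes of the same library, 7 of the 8 members had higher values in every ecko library than in every control library, as did 92.9% of all genes tested, so the count says nothing particular about the members. The measure was log2(CPM + 0.5) of the gene minus the mean of the same over the 13 general endothelial genes. That mean was 4.24 to 4.29 in ecko libraries and 4.89 to 4.98 in control libraries, so a gene with equal CPM in both groups gains this gap by arithmetic. The measure for Vwf was 1.10, 1.22 and 1.17 in ecko libraries and 0.83, 1.04 and 0.81 in control libraries. This was a difference of 0.27, so the fall of Vwf was smaller than the mean fall of the list. The fitted log2 fold changes of the 13 list genes ran from -1.07 to -0.17, and that of Vwf, -0.40, lay inside this range. In the relative measure the difference was 0.79 for Tfpi, 0.72 for F3, 0.71 for Plat, 0.68 for F2r, 0.67 for Thbd and 0.47 for Procr. Without control 1 it was 0.25 for Procr. For F8 it was 0.23, and the groups overlapped, with 0.12 without control 2 and 0.35 without control 3. F8 was at 1.03 CPM in ecko and 1.58 CPM in control skin, so the added 0.5 CPM shrinks its own fall. With 1 CPM added the difference was 0.31. The fitted log2 fold change of F8, -0.61, was near the list median of -0.69, so 0.23 does not show a smaller fall than the list. The differences are descriptions without a test, and the 8 values share 1 subtracted mean.

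**Figure D3:**
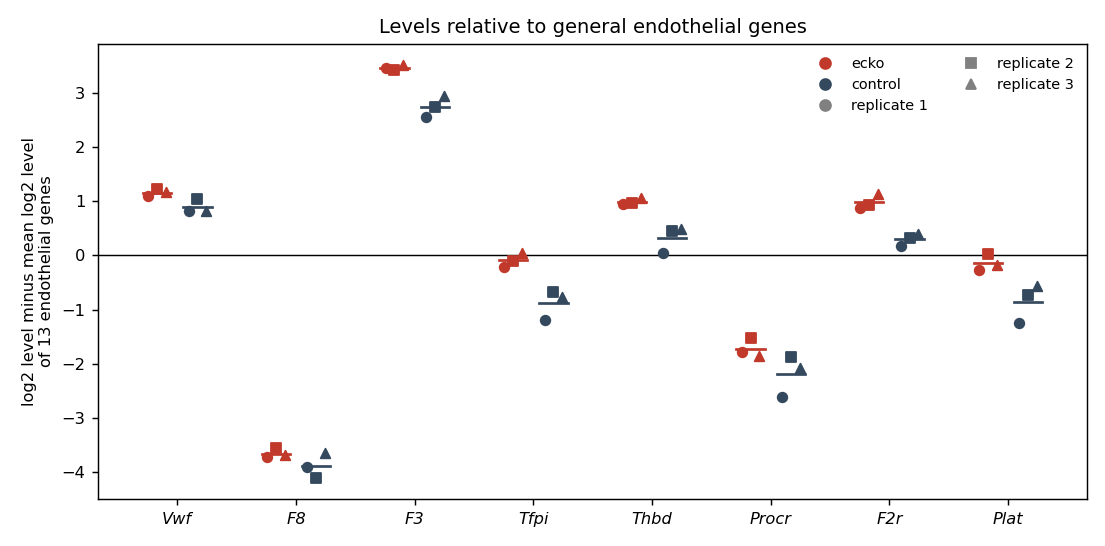
Log2(CPM + 0.5) of each gene minus the mean over 13 general endothelial genes of the same library (vertical axis), with 1 symbol per library and a bar at the group mean. The values are to be read within a gene, and in all genes but F8 the 3 ecko values lie above the 3 control values, which holds for 92.9% of all genes tested. Vwf lies at 1.10 to 1.22 in ecko and at 0.81 to 1.04 in control libraries.

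Per kilobase of transcript, F3 was the most abundant of the 8, at 114 ± 5.15 CPM per kb in ecko skin and 109 ± 11.2 CPM per kb in control skin (SD, n = 3 each). In control skin F2r followed at 11.1, Thbd at 10.2, Tfpi at 7.99, Plat at 6.60, Vwf at 6.37, Procr at 3.96 and F8 at 0.161 CPM per kb. Each neighbour in that order overlapped the next in its control libraries from F2r down to Vwf. Vwf and Procr did not overlap, and F3 and F8 stood apart at the ends. In ecko skin Vwf had 4.68 to 4.92 CPM per kb and Plat 6.24 to 7.41 CPM per kb, whereas in control skin Vwf had 5.83 to 6.98 CPM per kb and Plat 5.05 to 7.70 CPM per kb.

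Other genes of the pathway were read from 6 lists, and none of their 34 tested genes passed with edgeR, DESeq2 or limma-voom. At an unadjusted edgeR p under 0.05 there were 7, namely F10, F5, Pros1, Serpine2, Serpinb2, Stab2 and F2rl2, of which 6 were higher in ecko skin. Over all genes tested 15.4% were under that p. Among clotting factors and fibrinogen chains 6 of the 13 listed were tested, with a median log2 fold change of 0.29, 4 above 0 and 2 below. The 2 with the smallest p were F10 and F5. F10, which encodes factor X, had 47, 51 and 24 counts in ecko skin and 14, 27 and 19 counts in control skin, so ecko 3 lay inside the control range (log2 fold change 1.00, SE 0.34, edgeR adjusted p = 0.202). F5, which encodes factor V, had 14, 19 and 25 counts in ecko skin and 8, 10 and 14 counts in control skin (log2 fold change 0.83, SE 0.34, edgeR adjusted p = 0.283). F12, Fgb, Fgg and F9, which belong to liver-made clotting proteins, had 0 to 2 counts in every library. Not all genes of that kind were so low. Fga, a fibrinogen chain gene, averaged 1.32 CPM in ecko skin and 1.85 CPM in control skin (log2 fold change -0.49, edgeR adjusted p = 0.624). F7, which encodes factor VII, averaged 0.694 CPM in ecko skin and 0.534 CPM in control skin (log2 fold change 0.38, edgeR adjusted p = 0.678).

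The natural anticoagulant list had 4 tested genes, 2 above 0 and 2 below. Pros1, which encodes the protein C cofactor protein S, had 135, 137 and 150 CPM in ecko libraries and 115, 127 and 130 CPM in control libraries (log2 fold change 0.18, SE 0.07, edgeR adjusted p = 0.238). Its groups did not overlap. Serpine2, which encodes the thrombin inhibitor protease nexin-1, had 54.2, 60.1 and 56.9 CPM in ecko libraries and 71.0, 79.7 and 62.9 CPM in control libraries (log2 fold change -0.32, SE 0.09, edgeR adjusted p = 0.125). Every ecko value was below every control value. Proc, the gene of protein C itself, was not analysed here.

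In the plasminogen list 8 of 11 genes were tested, with a median log2 fold change of 0.01. Serpinb2, which encodes the plasminogen activator inhibitor PAI-2 of keratinocytes and macrophages, had the smallest p, at 188 ± 29.1 CPM in ecko skin and 149 ± 14.2 CPM in control skin (SD, n = 3 each), and its log2 fold change was 0.34 (SE 0.11, edgeR adjusted p = 0.192). Ecko 1, at 156 CPM, lay inside the control range. For Plgrkt, which encodes a plasminogen receptor, the log2 fold change was 0.07 (SE 0.08, edgeR adjusted p = 0.717). Plau, which encodes urokinase, had 33.1, 35.0 and 37.6 CPM in ecko libraries and 34.2, 31.2 and 39.7 CPM in control libraries (log2 fold change 0.01, SE 0.09, edgeR adjusted p = 0.983).

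Of genes that handle von Willebrand factor and factor VIII, 10 of 11 were tested, with a median of 0.05. Stab2, a scavenger receptor gene, had 16, 17 and 13 counts in ecko skin and 6, 9 and 11 counts in control skin (log2 fold change 0.80, SE 0.34, edgeR adjusted p = 0.298). Selp, the P-selectin gene whose product shares the Weibel-Palade body with von Willebrand factor, was at 6.38 ± 0.882 CPM in ecko skin and 5.39 ± 0.339 CPM in control skin (SD, n = 3 each). Its log2 fold change was 0.24 (SE 0.14, edgeR adjusted p = 0.454), and it is also in the venous list. The protease-activated receptor genes F2rl2 and F2rl1 had log2 fold changes of 0.51 (SE 0.21, edgeR adjusted p = 0.284) and 0.10 (SE 0.09, edgeR adjusted p = 0.656). F2rl2 had 35, 48 and 50 counts in ecko skin and 27, 33 and 32 counts in control skin, without overlap. Among 4 genes that restrain platelets, Entpd1, which encodes the ADP-degrading enzyme CD39, had a log2 fold change of 0.11 (SE 0.07, edgeR adjusted p = 0.538), and Ptgis, which encodes prostacyclin synthase, had a log2 fold change of 0.12 (SE 0.12, edgeR adjusted p = 0.708).

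**Figure D4:**
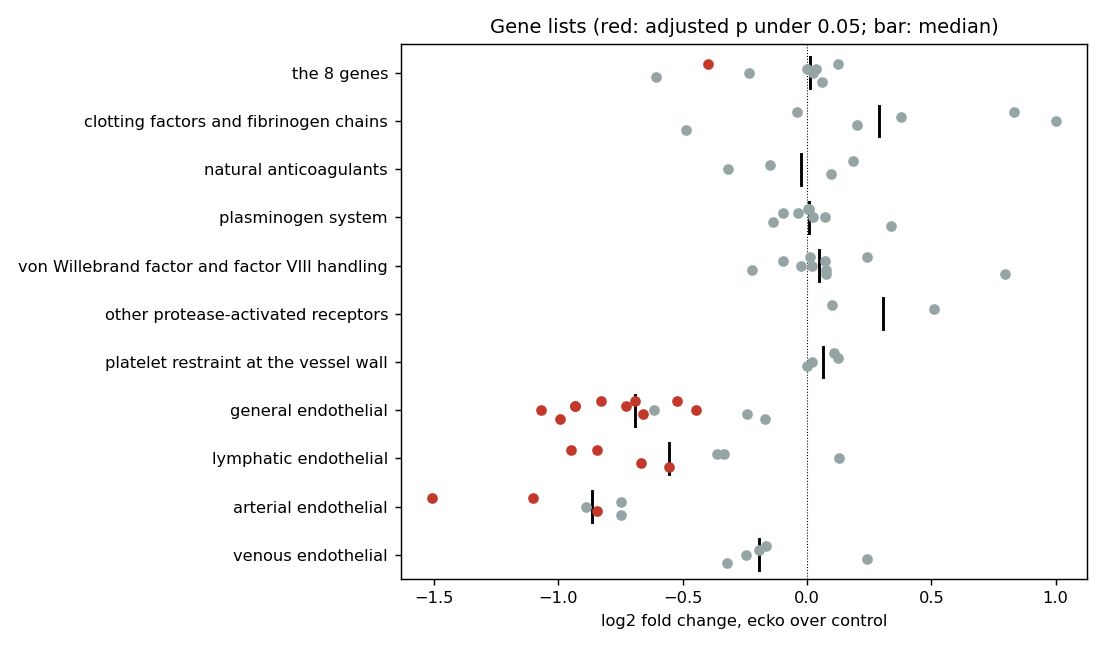
Log2 fold change of ecko over control (horizontal axis) of each tested gene in the 8 genes, 6 pathway lists and 4 endothelial marker lists, with black bars at the medians and red points for an adjusted p under 0.05. Vwf is the 1 red point among the clotting genes, whereas 10 of 13 general endothelial genes are red with a median of -0.69.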

How the data were processed

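RNA of ear skin, 3 ecko and 3 control samples, was isolated with Trizol and enriched for poly(A) RNA, per the labels' protocols. The deposited values are estimated counts of reads for each gene, made by the authors before any scaling across libraries, and 10.5% were not whole. RSEM 1.3.1, Bowtie2 2.4.5 and HISAT2 2.2.1 are listed with the build GRCm38.p6, and with no roles, in the submitters' processing notes. Strand setting and annotation release are not given in the sources used here. RSEM divides reads shared by similar genes by estimate. No annotated exon of another gene overlapped those of the 8 members in GENCODE M21.

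Counts were rounded to whole numbers. filterByExpr (a minimum count of 10) kept 14866 of 18422 genes, all 8 members among them, and libraries were scaled by TMM. The edgeR 4.0.16 quasi-likelihood test (R 4.3.3) compared ecko with control over all 6 libraries, with Benjamini-Hochberg adjustment over all genes and a threshold of 0.05. The SE is the log2 fold change divided by the square root of F, and the 95% interval uses the t distribution of that fit. It and all SDs cover these libraries only, and genes with few counts, such as F8, are the least precise. Fits were tested on simulated data with changes larger than that of Vwf. These simulations do not show how well a change of the size of that in Vwf is found. Levels per kb used the longest principal transcript in GENCODE. Replicates differed by 4.89 to 14.8 times the sampling variance of reads, so none was another library sequenced again. That measure cannot tell libraries of 1 animal from libraries of separate animals. Partner ratios used log2(CPM + 0.5) and an exact permutation test.

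The members and lists were chosen with earlier results of these data known. Named were the 8 members, Kdr, the genes that passed in each pathway list or else the 2 with the smallest p, Plau, Pros1, abundant markers, and the 3 genes of at least 5 CPM nearest to Vwf in profile. Another gene that this rule takes is not reported here. Mural markers, Treml1, Fga, F7 and the near-absent clotting factors were named after their values were seen. Alternatives were DESeq2 1.42.0, limma-voom (limma 3.58.1), upper-quartile and RLE factors, other filters, a replicate block, a sex term, a threshold of 0.1, a pseudocount of 1 CPM, the median of the endothelial list and each library left out.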

Additional observations from a re-analysis of the deposited data

How the results depend on the processing

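The Vwf call was kept with RLE and upper-quartile factors, DESeq2, limma-voom, no low-count filter, a filter of 1 CPM in 3 libraries, a sex term and the replicate block, with log2 fold changes of -0.42 to -0.40 and adjusted p from 0.00368 to 0.0446. It was lost in the male libraries alone (-0.47), which left 0 members called, and in 5 of the 6 fits that left out a library (-0.42 to -0.33, 0 members called). The fit without control 3 kept it (-0.46, 1 member called lower). In all 6 of these fits 0 members were called higher. Over all genes, 160 were called lower and 102 higher. Leaving out a library gave 34 to 242 lower and 22 to 165 higher, DESeq2 gave 195 higher, the replicate block 63 higher, the male libraries 91 lower, and a threshold of 0.1 gave 269 lower and 182 higher. The 242 and 165 came without control 3, and the other 5 fits without a library gave fewer calls than all 6 libraries. The cause of these shifts was not tested.

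Directions near 0 were not stable. Thbd was at -0.014 with upper-quartile factors and F2r at -0.031 in the male libraries. Without single libraries the ranges were -0.10 to 0.058 for Thbd, -0.12 to 0.16 for Plat, -0.062 to 0.066 for F2r, -0.0012 to 0.14 for F3, 0.01 to 0.23 for Tfpi, -0.41 to -0.06 for Procr and -0.75 to -0.47 for F8. The partner ratios and the levels relative to endothelial genes moved by less than 1 SD in all their alternatives.

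The labels do not say whether the replicate numbers mark pairs. Deviations of same-numbered libraries correlated at 0.0593, 0.0244 and 0.186 over genes, and those of differently numbered libraries at -0.124 to 0.0768. The highest value, 0.186, joined ecko 3 and control 3, which were also the female libraries. These correlations cannot settle whether the libraries were paired. With the replicate block Vwf had -0.40 (adjusted p = 0.0446).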
